A study of Mus musculus with 9 samples.

Results

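Jejunum of mice that lack Gata4 in the intestinal epithelium was compared with jejunum of control mice, across all transcripts measured on an expression array. The members are the 3 arrays whose titles name mutant jejunum and the 3 whose titles name control jejunum, 6 of the 9 arrays of the series, with 1 male mouse per array, and all 45037 probe sets that are not array controls, of 45101. Control mice were Gata4loxP/+VilCre: 1 copy of Gata4 was flanked by loxP sites and the other was intact. Mutant mice were Gata4loxP/-VilCre, with a null copy in place of the intact one. Every mouse carried villin-Cre, which drives Cre recombinase in the intestinal epithelium and not in muscle, nerves or immune cells, so the loxP-flanked copy met Cre in both groups. All mice were adults of 6 to 8 weeks. Jejunum was taken 10 cm from the pyloric sphincter. The remaining 3 arrays hold ileum of other Gata4loxP/+VilCre males, taken 1 cm from the cecum, and their levels stand beside those of the mutant as a reference for the distal bowel. These 3 arrays also entered the normalization, the choice of probe sets tested and the estimate of spread behind each SE and p.

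GATA4 is a zinc finger transcription factor that binds DNA at the sequence GATA and is made in the epithelium of the proximal small intestine but hardly in the terminal ileum. The jejunum digests milk sugar and takes up most dietary fat, folate and sugars. The ileum reclaims bile acids: a sodium-coupled carrier brings them into the enterocyte, a binding protein carries them through the cell, a pair of exporter subunits passes them to the blood, and the bile acid receptor FXR switches on the hormone Fgf15 and the repressor Nr0b2.

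Levels are log2(intensity + 16) after quantile normalization, a step that gives all arrays the same distribution of values; a probe set with no signal sits near 4. Differences are mutant minus control on that scale, and understate changes of dim transcripts. A gene was called when its adjusted p was under 0.05 in limma, a linear model. The model was fitted to the 29307 probe sets that passed a filter on low values, with Benjamini-Hochberg adjustment over those. Single values are listed for mice 1, 2 and 3 of a group, and these numbers are used only as names. Trimmed mean intensity ran from 147.5 to 179.8 on the jejunum arrays and from 96.83 to 121.7 on the ileum arrays. Mutant jejunum 3 stood apart from the other jejunum arrays on the second principal component (-46.3, the other arrays from -18 to 28.4) and took an array weight of 0.384, the lowest of the 9.

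Markers of enterocytes, the absorptive cells of the small intestine, were high on all 6 jejunum arrays; they are as high on the ileum arrays and do not tell the segments apart. Of 9 enterocyte markers measured, none was called in limma (at an unadjusted p under 0.05, 1 was higher and 2 were lower). Vil1, the brush border protein villin, stood at 12.92, 12.92 and 12.99 in controls and 12.96, 12.88 and 12.65 in mutants. Fabp2, the intestinal fatty acid binding protein, stood at 13.65, 13.53 and 13.65 in controls and at 13.55, 13.65 and 13.53 in mutants. The median difference of the enterocyte markers was -0.01, or 0.11 when each array was centred.

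Gata4 itself was read by 2 probe sets. The brighter gave 9.57, 9.49 and 9.52 in controls and 9.61, 9.51 and 9.38 in mutants, and the groups overlapped (difference -0.02, limma adjusted p = 0.959; 0.08 with centred arrays and 0.04 without scaling). The dimmer gave 8.07, 7.30 and 7.34 against 8.47, 8.29 and 7.91, also overlapping (0.65, limma adjusted p = 0.195). The sources used here do not say whether these probes lie inside the deleted part of the gene, so they check nothing about its loss.

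Of 29307 probe sets tested, 511 (1.74%) were called higher and 533 (1.82%) lower in mutant jejunum. The share of calls that were rises was 48.9%, but 62.0% when each array was centred on its median. The ileum arrays share in the estimate of spread, and a fit of the 6 jejunum arrays alone called 393 higher and 411 lower. The counts rested in part on single mice: they were 214 and 204 without control jejunum 2, 207 and 193 without control jejunum 3, and 210 and 222 without mutant jejunum 2, and the rises numbered 337 without mutant jejunum 1. Taking 1 probe set per gene, the brightest, 290 of 13830 genes rose (2.10%) and 317 fell (2.29%). Among these 117 rose (0.846%) and 159 fell (1.15%) by at least 2-fold, 29 (0.210%) and 37 (0.268%) by at least 4-fold, and 11 each way (0.0795% each) by at least 8-fold. With no test, the mutant arrays lay wholly above the control arrays for 1682 genes (12.2%) and wholly below for 1771 (12.8%). A call that kept its sign and its side of the threshold in every alternative processing, leaving out each array in turn included, is termed robust here. Robust calls were 98 rises (0.709%) and 93 falls (0.672%), and the genes named as risen or fallen are of this kind unless stated otherwise.

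**Figure D1:**
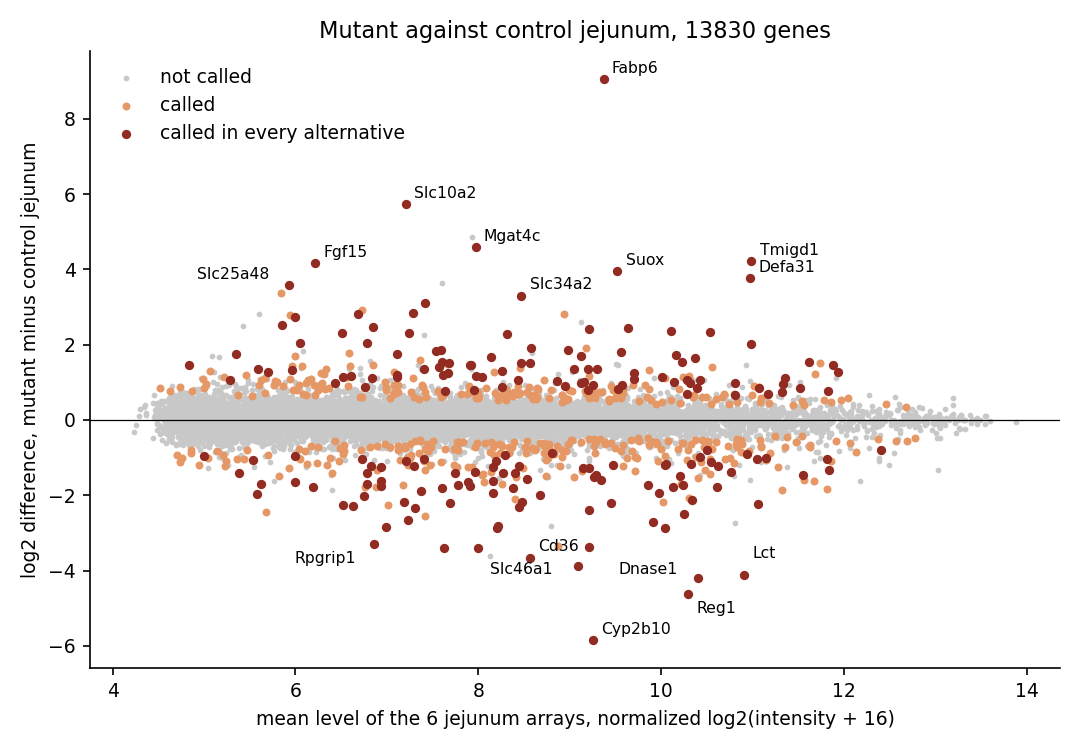
Difference between mutant and control jejunum (vertical axis, log2) against the mean level of the 6 jejunum arrays (horizontal axis, log2), 1 point per gene. Grey points were not called, orange points were called, and dark red points were called in every alternative; Fabp6 lies highest at 9.06 and Cyp2b10 lowest at -5.84.

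The largest rise was in the bile acid pathway of the ileum. Of 11 genes listed for bile acid uptake and signalling and tested, 8 rose and 1 fell, where 2.10% and 2.29% of all genes did; 7 of the rises and the fall were robust, and the median difference was 1.70 against 0.00 for all genes. The groups of mice did not overlap for any of the 9 called members, where 12.2% of all genes lay wholly above and 12.8% wholly below. These members were picked by their calls, so this adds little to the calls themselves. The list was chosen with earlier results of these data known, so its direction is not independent evidence.

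Slc10a2, the apical sodium-dependent carrier that takes bile acids up, stood at 4.03, 4.58 and 4.42 in controls and 9.60, 9.94 and 10.69 in mutants, with ileum at 11.05, 10.63 and 10.45. All mutants lay far above all controls, mutant 3 reached into the ileal range, and mutants 1 and 2 lay below it (difference 5.74, SE 0.26, limma adjusted p = 8.75e-07). The controls sat at background, so the size depends on the pseudocount: it was 7.99 with 1 and 4.05 with 64. Fabp6, which binds bile acids inside the enterocyte, stood at 4.86, 4.64 and 5.02 in controls and 13.90 in each mutant, with ileum at 13.70, 13.85 and 13.65. As deposited, its intensity was 14.9, 10.3 and 19.2 in controls against 17881, 17591 and 15190 in mutants. It was the brightest of the 45037 probe sets on every mutant array, whereas it ranked 3, 2 and 4 on the ileum arrays and no higher than 26124 on the control jejunum arrays. Equal ranks get equal values under quantile normalization, so the mutants' agreement is set by the method (difference 9.06, SE 0.11, limma adjusted p = 3.57e-12).

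The exporter subunits rose from levels that controls already had. Slc51a stood at 11.11, 10.75 and 10.65 in controls and 12.41, 12.39 and 12.36 in mutants (difference 1.55, SE 0.12, limma adjusted p = 5.78e-05). Slc51b stood at 9.69, 9.26 and 9.15 against 11.48, 11.58 and 12.06 (2.34, SE 0.17, limma adjusted p = 4.87e-05). Ileum arrays read 12.24 to 12.35 for the first and 11.50 to 11.70 for the second, so the mutants matched or passed them.

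The receptor and its targets rose together but differed in how they stood against ileum. Nr1h4, which encodes FXR, went from 8.20, 8.27 and 8.36 in controls to 9.75, 9.91 and 10.26 in mutants, with ileum at 10.23, 10.30 and 10.49 (difference 1.70, SE 0.14, limma adjusted p = 0.000105). Fgf15, the hormone that tells the liver to make less bile acid, was at 4.11, 4.15 and 4.13 in controls, 7.86, 7.34 and 9.70 in mutants and 6.70, 4.69 and 5.43 in ileum (4.17, SE 0.57, limma adjusted p = 0.00269). Nr0b2, the repressor SHP, was at 5.71, 5.06 and 5.29 in controls, 7.38, 7.64 and 8.00 in mutants and 5.28, 5.07 and 4.98 in ileum (2.32, SE 0.21, limma adjusted p = 0.000156). For both targets every mutant lay above every array of both control segments, and ileal Nr0b2 overlapped control jejunum. Controls of Fgf15 sat at background, so its difference depends on the pseudocount: it was 6.88 with 1 and 2.51 with 64, and that of Nr0b2 was 1.50 with 64. Cyp27a1, a sterol hydroxylase that acts in making bile acids, fell from 8.79, 8.95 and 9.18 to 7.35, 7.58 and 7.11 (-1.63, SE 0.22, limma adjusted p = 0.00255), below ileum at 8.54, 8.29 and 7.64.

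**Figure D2:**
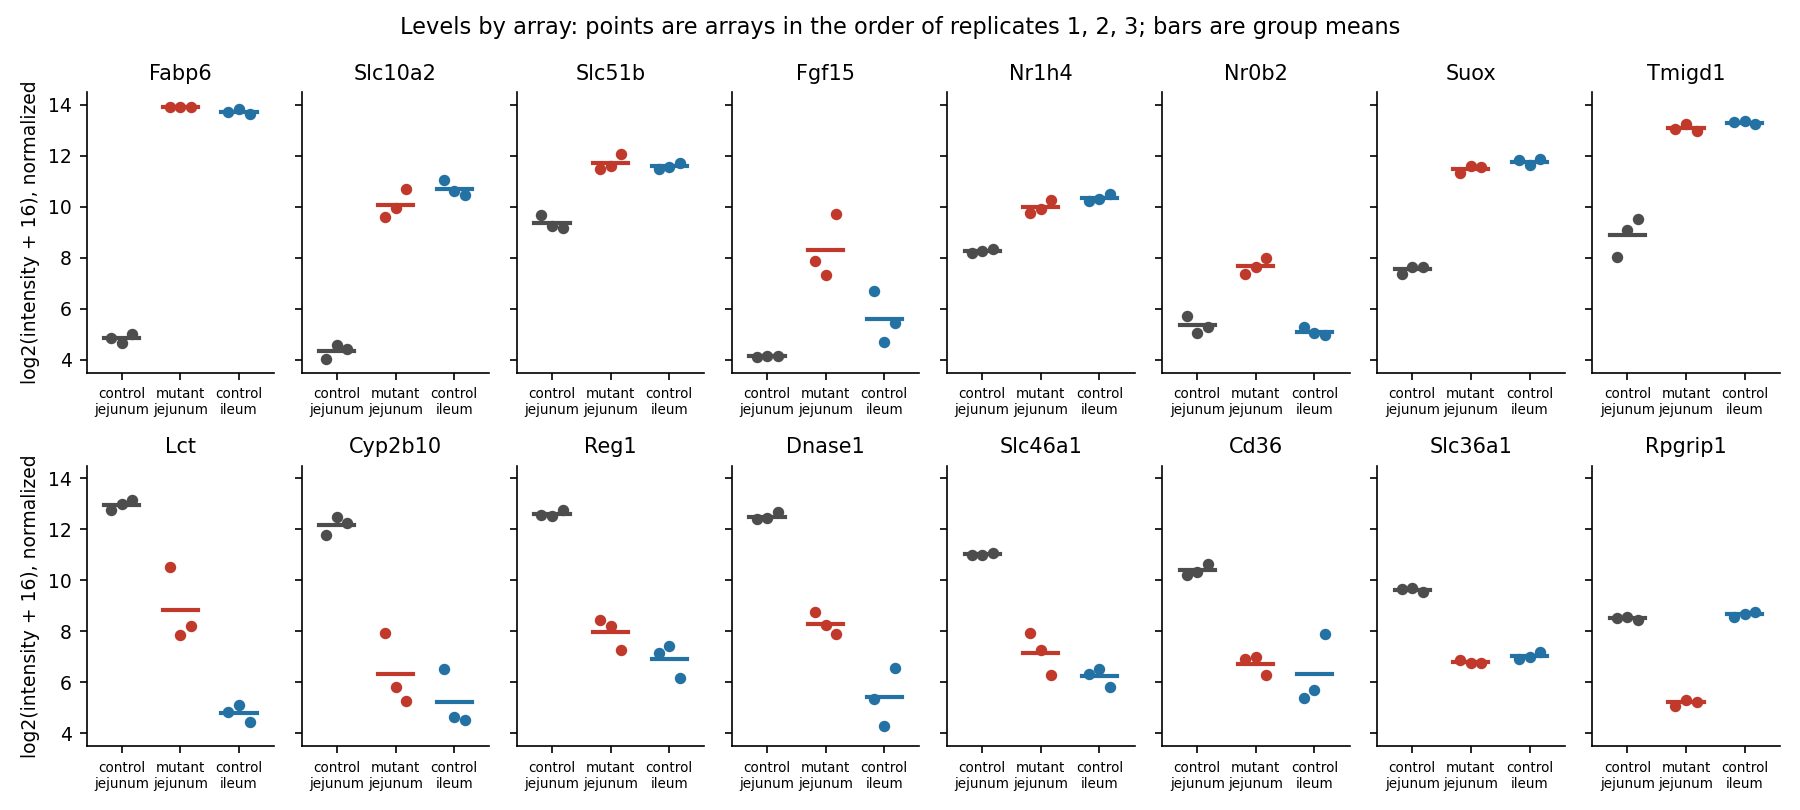
Normalized level of 16 genes (vertical axis, log2) on each array of control jejunum (grey), mutant jejunum (red) and control ileum (blue); bars are group means, n = 3 mice. Fabp6 and Slc51b reach ileal levels in the mutant, Slc10a2 does so in mutant 3, Nr0b2 and Fgf15 lie above ileum, Lct lies between the segments, and Rpgrip1 is low in the mutant alone.

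Promoter sequence is shown for the 2 bile acid carriers with the largest rises and for Lct, the lactase gene that fell, since GATA4 binds DNA at GATA sites. RefSeq's GRCm38.p6 gives the 250 bases before the start of Slc10a2 (chr8:5105288-5105537, minus strand), Fabp6 (chr11:43601563-43601812, minus strand) and Lct (chr1:128328319-128328568, minus strand). Capitals mark the GATA site, searched on both strands as AGATAA, as its variant AGATAG, as the form TGATAA and as the form TGATAG.
Slc10a2: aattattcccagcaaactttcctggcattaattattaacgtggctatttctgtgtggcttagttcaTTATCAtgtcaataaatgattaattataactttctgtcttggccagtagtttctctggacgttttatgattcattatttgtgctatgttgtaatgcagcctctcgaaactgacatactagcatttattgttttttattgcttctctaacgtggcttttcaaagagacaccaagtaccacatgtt
Fabp6: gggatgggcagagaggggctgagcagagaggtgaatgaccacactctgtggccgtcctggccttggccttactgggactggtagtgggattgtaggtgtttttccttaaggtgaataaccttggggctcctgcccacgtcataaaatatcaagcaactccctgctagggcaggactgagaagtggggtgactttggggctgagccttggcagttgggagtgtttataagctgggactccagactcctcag
Lct: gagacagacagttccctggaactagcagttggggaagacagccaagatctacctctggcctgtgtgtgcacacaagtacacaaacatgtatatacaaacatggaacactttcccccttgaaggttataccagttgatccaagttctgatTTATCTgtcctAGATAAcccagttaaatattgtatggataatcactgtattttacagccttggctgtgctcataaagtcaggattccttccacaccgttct
Lct held 2 matches, which begin 101 and 90 bases before its start, Slc10a2 held 1 at 184 bases and Fabp6 none. Such matches are common: 26.5% of all 32851 windows of that length held at least 1. They stood in 11 of the 27 windows found for the 25 largest rises (40.7%) and in 9 of the 31 found for the 25 largest falls (29.0%). Some genes have several windows, which can overlap. By gene, 8 of 22 with a window among the rises and 8 of 23 among the falls held a match, against 8039 of all 27025. A match is a description of letters and not a binding site, and the absence of one says nothing of GATA4 at other distances.

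Among the 25 largest robust rises, several encode proteins of the brush border and cell junctions. Tmigd1, a membrane protein of the epithelium, stood at 8.03, 9.10 and 9.51 in controls and 13.06, 13.25 and 12.98 in mutants, with ileum at 13.31, 13.35 and 13.24 (difference 4.21, limma adjusted p = 3e-05). Cldn2, a claudin that forms cation pores in tight junctions, rose from 9.07, 9 and 8.71 to 11.10, 11.03 and 11.72 (2.36, limma adjusted p = 0.000126), and both of its probe sets were called. Mep1a, the alpha subunit of the brush border protease meprin, rose from 9.84, 9.76 and 10.30 to 12.16, 12.25 and 11.55 (2.02, limma adjusted p = 0.000198). Groups that did not overlap were a condition for a place among the 25, so this is no result for them. Tspan1, a tetraspanin, rose by 2.41. In the list of junctions, keratins and brush border structure, 7 of 40 genes rose (17.5%) and 1 fell (2.50%; 6 and 0 robust, median 0.13). Of all genes 2.10% rose and 2.29% fell. The list's other robust rises were Krt7 (1.01), Krt18 (0.84) and Tspan8 (0.84).

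Enzymes made up another share of the rises. Suox, the mitochondrial sulfite oxidase, stood at 7.37, 7.63 and 7.64 in controls, 11.32, 11.59 and 11.57 in mutants and 11.83, 11.62 and 11.86 in ileum (difference 3.95, SE 0.12, limma adjusted p = 5.02e-08). Mgat4c, a glycosyltransferase of the N-glycan branching family, stood at 6.07, 5.51 and 5.44 against 10.11, 10.62 and 10.08, with ileum at 10.86, 11.09 and 11.23 (4.59, SE 0.20, limma adjusted p = 6.63e-07). For both, the mutant level came near the ileal level and far from control jejunum. Of 40 glycosyltransferases and glycan sulfotransferases 2 rose and 0 fell in limma (7 higher and 4 lower at an unadjusted p under 0.05), a share of calls near that of all genes (5% against 4.39%). The list's median was 0.03, and Mgat4c was its 1 robust call.

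Lipid enzymes rose in part. Scd2, a stearoyl-CoA desaturase, stood at 8.32, 8.42 and 8.53 in controls and 10.37, 11.05 and 11.14 in mutants, and all 3 of its probe sets were called (difference 2.43, limma adjusted p = 0.000175). The acyltransferases Lpcat4 (2.53; 3.86 with a pseudocount of 1 and 1.38 with 64) and Mboat1 (2.04) rose as well. Hao2, a peroxisomal hydroxyacid oxidase, stood at 4.76, 5.69 and 5.38 against 8.27, 7.69 and 8.30 in mutants (2.81, or 1.87 with a pseudocount of 64). Ddah1, which breaks down methylated arginines, rose by 2.83 with all 5 of its probe sets called.

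Carriers that rose included Slc34a2, a sodium phosphate cotransporter, at 7.30, 7.07 and 6.08 in controls and 10.34, 10.92 and 9.08 in mutants (difference 3.30, limma adjusted p = 0.00271). Slc25a48, a mitochondrial carrier, stood at 4.19, 4.13 and 4.11 against 6.67, 8.10 and 8.38 (3.58, or 6.22 with a pseudocount of 1 and 2.01 with 64), in 1 of its 3 probe sets. For both genes the mutants were spread over more than 1 log2 unit. The Paneth cell peptide gene Defa31 rose from 9.47, 9.97 and 7.82 to 12.79, 12.87 and 12.91 (3.77, limma adjusted p = 0.000472). Alpha-defensins are near-identical copies, so this probe set may read several of them. The rest of the 25 were Tmem117 (3.11), the ubiquitin ligase gene Rnf180 (2.73, or 1.55 with a pseudocount of 64; 1 of 2 probe sets), the RNA exosome subunit gene Exosc4 (2.46; 1 of 3), Sval1 (2.30), the gasdermin gene Gsdme (2.29) and 2610528A11Rik (2.03, or 1.17 with 64).

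Cyp2b10, Reg1, Dnase1 and Lct had the largest falls, each from a control level over 11. Lct, the lactase of the brush border, stood at 12.74, 12.98 and 13.15 in controls, 10.51, 7.84 and 8.20 in mutants and 4.85, 5.10 and 4.45 in ileum. Its deposited intensity was 7484, 8106 and 10249 in controls and 1826, 256 and 282 in mutants. All mutants lay below all controls and above all ileum arrays, and mutant 1 kept far more than the others, 5.44-fold under the control mean against 34.7-fold and 27-fold (difference -4.11, SE 0.53, limma adjusted p = 0.0018). In the list of brush border disaccharidases and other hydrolases, 3 of 8 genes fell (37.5%) and 1 rose (12.5%; 1 and 1 robust), with a median of -1.42. Of all genes 2.29% fell and 2.10% rose. The list's robust rise was that of the sialidase gene Neu1 (1.52). Of 10 brush border peptidases, whose median was -0.02 (0.07 without scaling and 0.12 centred), Ace, the angiotensin-converting enzyme, fell by 2.50, and Mep1a and Naaladl1 (1.28) rose.

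Several drug-metabolizing enzymes fell. Cyp2b10, a P450 enzyme, stood at 11.78, 12.47 and 12.26 in controls, 7.95, 5.80 and 5.25 in mutants and 6.51, 4.65 and 4.54 in ileum (difference -5.84, SE 0.65, limma adjusted p = 0.000554). The groups of jejunum were far apart, the mutants overlapped ileum, and all 3 probe sets of the gene were called. Of 21 P450 genes 4 fell (19.0%, against 2.29% of all genes) and none rose (2 robust, median -0.83). Of 35 conjugation enzymes, esterases and efflux pumps, 10 fell (28.6%) and 1 rose (2.86%), against 2.29% and 2.10% of all genes. Among these calls 5 and 1 were robust, and the list's median was -0.35. Their robust falls were Hsd17b6, a hydroxysteroid dehydrogenase (-3.39), the alcohol dehydrogenase gene Adh4 (-2.20), Gstm6 (-1.80), Ugt2a3 (-1.72) and Ugt2b5 (-1.11), and the robust rise was the efflux pump gene Abcg2 (1.10). These enzymes belong to families of similar sequence, and probes may cross between copies.

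Some proteins secreted into the lumen were among the largest falls. Reg1, a secreted C-type lectin, stood at 12.54, 12.52 and 12.75 in controls and 8.45, 8.20 and 7.28 in mutants, with ileum at 7.13, 7.43 and 6.15 (difference -4.62, limma adjusted p = 4.71e-05). Dnase1, a secreted deoxyribonuclease, stood at 12.39, 12.44 and 12.66 against 8.77, 8.24 and 7.89, with ileum at 5.36, 4.29 and 6.57 (-4.20, limma adjusted p = 0.000429). Both dropped at least 13.3-fold in each mutant on this scale, and mutant Dnase1 stayed above every ileum array. In the list of nucleotide and nucleic acid breakdown 4 of 16 genes fell and 1 rose, all robust (median -0.47). Among all genes 2.29% fell and 2.10% rose. Besides Dnase1 the list's falls were the ribonuclease genes Ang (-1.90) and Rnase1 (-1.75) and the nucleotidase gene Entpd7 (-1.27). The AMP deaminase gene Ampd3 rose by 1.20. The fall of Ang is that of its brightest probe set. A second probe set fell less and not robustly (-0.96), and the last was higher without being called (0.55). Cym, which encodes chymosin, a milk-clotting protease, fell by 2.85, and Mbl2, a mannose-binding lectin, by 2.27 (fell by 1.46 with a pseudocount of 64).

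Carriers of vitamins and amino acids were also among the largest falls. Slc46a1, the proton-coupled folate carrier of the proximal bowel, stood at 11.01, 11 and 11.05 in controls and 7.92, 7.26 and 6.27 in mutants, with ileum at 6.33, 6.54 and 5.83 (difference -3.87, limma adjusted p = 0.000119). Slc36a1, a proton-coupled amino acid carrier, stood at 9.65, 9.69 and 9.53 against 6.87, 6.76 and 6.74 (-2.83, SE 0.13, limma adjusted p = 6.83e-07). The controls agreed closely for both; the mutants agreed for the second and spread over more than 1 log2 unit for the first. Slc23a1, a vitamin C carrier, fell by 2.65, and the retinol saturase gene Retsat by 1.19, while Slc52a3, a riboflavin carrier, rose by 1.35. Of 23 genes of vitamin and retinoid handling (median -0.41) 6 fell (26.1%; 3 robust) and 3 rose (13.0%; 1 robust). Of all genes 2.29% fell and 2.10% rose.

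Amino acid carriers moved in both directions, and the sugar genes that were called fell. Of 17 amino acid and peptide transporters (median -0.37) 6 fell (35.3%; 3 robust) and 3 rose (17.6%; 1 robust). Of all genes 2.29% fell and 2.10% rose. Slc7a8, a neutral amino acid exchanger, stood at 9.36, 9.52 and 10.05 in controls and 7.23, 6.96 and 6.10 in mutants (-2.88, limma adjusted p = 0.000544). Slc3a2, the heavy chain such exchangers need, fell by 1.04, and Slc1a1, a glutamate carrier, rose by 1.52. Of 18 genes of hexose transport, fructose metabolism and gluconeogenesis 5 fell (27.8%, against 2.29% of all genes) and none rose (2 robust, median -0.62). Slc5a4a (-2.18) and Slc5a11 (-1.57), both of the sodium-glucose cotransporter family, were the robust falls. Slc5a12, a sodium-coupled lactate carrier, stood at 10.32, 11.17 and 11.21 against 8.12, 6.94 and 7.54 (-3.37, limma adjusted p = 0.000327), whereas Slc5a8, a related carrier, rose by 1.80.

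Genes of fat handling moved in both directions. Cd36, a fatty acid receptor of the brush border, stood at 10.20, 10.33 and 10.63 in controls, 6.92, 6.99 and 6.29 in mutants and 5.39, 5.69 and 7.89 in ileum, and all 3 of its probe sets were called (difference -3.66, SE 0.51, limma adjusted p = 0.00284). In all, 4 of 28 genes of fat uptake and chylomicrons fell (14.3%) and 2 rose (7.14%), against 2.29% and 2.10% of all genes (2 and 2 robust, median -0.22). Dgat2, which makes triglyceride, fell by 1.22, and Agpat2, an acyltransferase earlier in the path, rose by 0.75. Bbox1, the last enzyme of carnitine synthesis, fell by 3.41, and the carnitine carrier Slc25a20 rose by 0.86. Those were the 2 robust calls among 21 genes of fatty acid oxidation and carnitine (3 fell and 1 rose; median -0.08, or 0.03 with arrays centred on their medians). Of 20 cholesterol synthesis genes 5 rose and none fell (1 robust, the squalene epoxidase gene Sqle, 1.25; median 0.55). Of 9 genes of cholesterol uptake and efflux 1 rose (11.1%), not robustly, and none fell (median -0.38), with 1 higher and 4 lower at that unadjusted p.

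The rest of the 25 largest falls were Rpgrip1 (-3.30), the peroxiredoxin-like gene Prxl2a (-2.87), the caspase gene Casp6 (-2.71; 1 of 2 probe sets), the matrix protein gene Fbln1 (-2.39; 2 of 3), Fam13a (-2.35), Rragd, a small GTPase of amino acid sensing (-2.31; 2 of 3), Efr3b (-2.29, or -1.52 with a pseudocount of 64), Ms4a10 (-2.23) and Gpr155 (-2.22).

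Of 38 regional and epithelial transcription factors 4 rose (10.5%) and 3 fell (7.89%), where 2.10% and 2.29% of all genes did (3 and 1 robust, median 0.07). Osr2 (1.68), Foxa1 (1.30) and Ehf (1.17) rose, and Zfpm1, a partner of GATA factors, fell by 1.40. Of 24 enteroendocrine genes 3 rose (12.5%) and 4 fell (16.7%; 2 and 1 robust, median -0.16). Nts, the gut peptide neurotensin, stood at 9.32, 9.54 and 9.75 in controls and 11.45, 11.02 and 11.09 in mutants (1.65, limma adjusted p = 0.000144), and Pyy, peptide YY, rose by 1.46. Cck, cholecystokinin, stood at 9.10, 9.08 and 9.20 against 7.19, 7.35 and 7.05 (-1.93, limma adjusted p = 0.000117). The groups did not overlap for Nts or Cck. The calls that were not robust were the rise of Sct, secretin (0.68), and the falls of Gip (-1.69), Sst (-1.07) and Chgb (-0.77). All 4 were lost without control jejunum 2 (limma adjusted p from 0.0552 for Gip to 0.10 for Chgb). In whole tissue, fewer cells of a type and less RNA per cell cannot be told apart.

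Other lists were counted in the same way. None of 26 cell cycle genes was called in limma, nor had any an unadjusted p under 0.05 (0 of 26; median -0.03, or 0.03 after centring each array). Of 32 genes of Wnt, Notch, BMP and hedgehog signalling 1 rose and 1 fell (3.12% each). Of 26 genes of protein folding in the endoplasmic reticulum 1 rose (3.85%). Of 37 genes of antigen presentation and interferon response 1 fell (2.70%). These shares lie near the 2.10% of all genes that rose and the 2.29% that fell, and none of these calls was robust. Of 22 immediate early genes 1 rose (4.55%) and of 17 clock genes 1 fell (5.88%), neither robustly (medians 0.21 and -0.11). At an unadjusted p under 0.05, which 1221 of 13830 genes passed upward and 1309 downward, 6 immediate early genes were higher and 0 lower, and 0 clock genes were higher and 6 lower. Of 33 genes of secreted lectins and epithelial defence, Reg1 fell robustly and Retnlb rose (3.36), not robustly (3.03% each way). The list's median was 0.23 and its range -4.62 to 4.87, with 11 higher and 4 lower at an unadjusted p under 0.05. Of 32 nuclear receptors the robust calls were the rises of Nr1h4 and Nr0b2 (Nr1i3 fell, not robustly, -1.47; median -0.12); 6.25% rose and 3.12% fell, and 3 were higher and 9 lower at an unadjusted p under 0.05.

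Calls in further lists of transport and metabolism are read against the 2.10% and 2.29% of all genes that rose and fell. Of 30 genes of ion and water transport 2 rose and 2 fell (6.67% each): Guca2a, guanylin, rose by 1.47, the carbonic anhydrase gene Car12 by 1.13, and the water channel gene Aqp3 fell by 1.72 (2 and 1 robust). Of 19 enzymes of amino acid and urea metabolism Suox and Prodh (1.13), the proline dehydrogenase gene, rose, and the arginase gene Arg2 fell by 1.47, all robust (median -0.10). Of 18 genes of iron, zinc and copper handling 1 rose and 1 fell, the zinc exporter gene Slc30a1 robustly (1.86). Of 9 genes of calcium and phosphate handling 2 rose, Slc34a2 robustly. Of 14 organic ion and monocarboxylate transporters 3 rose and 3 fell (21.4% each), and Slc16a9 (-1.71) was a robust fall beside Slc5a12.

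**Figure D3:**
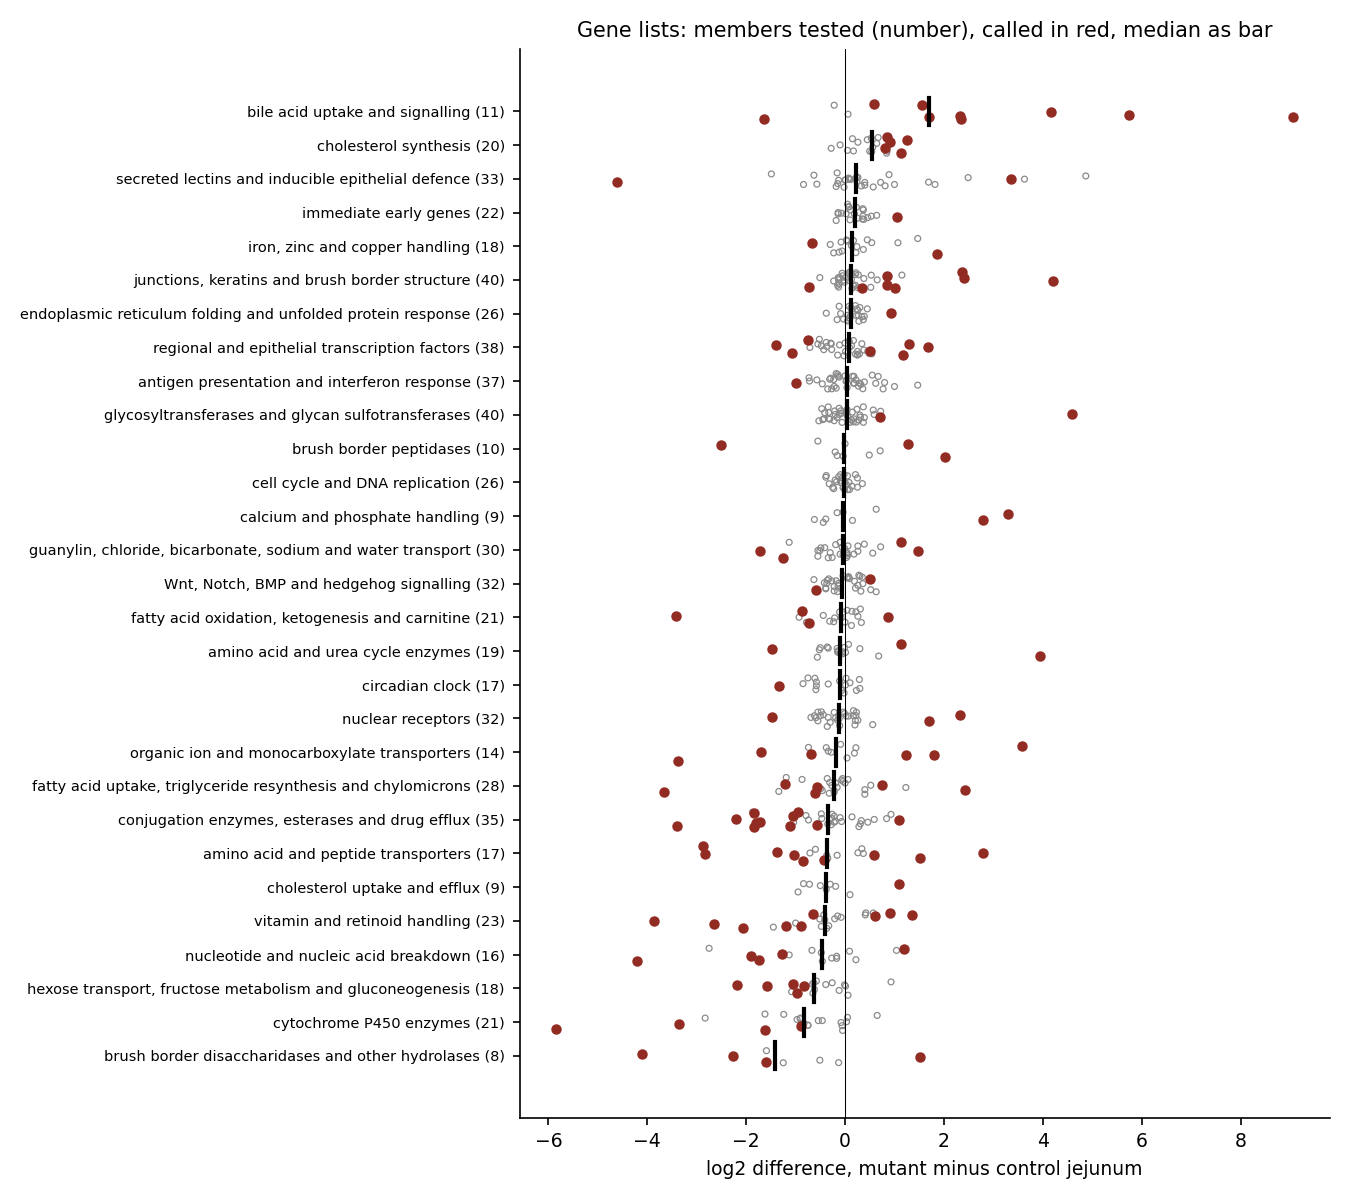
Log2 difference between mutant and control jejunum (horizontal axis) of the tested members of each function list, with the number tested in brackets; red points were called, open points were not, and bars are medians. The bile acid list has the highest median, 1.70, and the brush border disaccharidases and other hydrolases the lowest, -1.42.

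The 25 largest rises and the 25 largest falls were set beside the ileum arrays. The mutant and ileum ranges overlapped for 13 of the rises and 13 of the falls. For 9 rises and 10 falls the mutants lay between the control segments, as Lct did. Only Fabp6, Fgf15 and Nr0b2 among the rises, and Rpgrip1 and Slc36a1 among the falls, had every mutant array past every ileum array. Both segments are read against the same control jejunum arrays, so no overlap of the calls themselves is given.

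Over all robust calls, 11 of 98 rises and 8 of 93 falls passed the ileum arrays in this way; those named next were chosen after their values were seen. Npl, an enzyme of sialic acid breakdown, stood at 6.98, 6.47 and 7.32 in control jejunum, 8.59, 8.04 and 8.65 in mutants and 6.27, 6.23 and 6.19 in ileum. Ereg, the growth factor epiregulin, read 6.30, 6.64 and 7.04 in control jejunum, 8.32, 8.20 and 9.08 in mutants and 7.72, 8.00 and 7.95 in ileum. Slc30a1, a zinc exporter, read 8.08, 8.07 and 8.00 in control jejunum, 9.55, 9.67 and 10.51 in mutants and 9.53 in each ileum. Every mutant lay above every ileum array for the 3 genes, far above for Npl and by little in mutant 2 for Ereg and in mutants 1 and 2 for Slc30a1. Cyp2s1, a P450 enzyme, fell to 8.21, 8.55 and 8.34 from 9.31, 9.30 and 9.16, with ileum at 9.52, 9.50 and 9.62, and Ckb, a creatine kinase, fell by 1.73 to levels below ileum.

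Rpgrip1, known as a protein of the photoreceptor cilium, had the clearest fall of this kind. It stood at 8.54, 8.57 and 8.43 in control jejunum, 5.09, 5.32 and 5.23 in mutants and 8.55, 8.68 and 8.76 in ileum (difference -3.30, SE 0.13, limma adjusted p = 2.37e-07). As deposited its intensity was 415, 374 and 383 in control jejunum and 20.1, 27.9 and 22 in mutants. Both control segments agreed and every mutant was far lower. Its other 3 probe sets sat between 4.08 and 4.97 on all arrays and were not tested, so the fall rests on 1 probe set.

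Rpgrip1 and the ribonuclease gene Ang lie on the chromosome that carries Gata4, by the gene order of the RefSeq GRCm38.p6 table, and were the 2 of the 8 falls past ileum that do; none of the 11 rises did. On that chromosome 6 of 467 genes rose and 16 fell. Its share of falls, 3.43%, was the highest of 20 chromosomes (the next was 3.20%), and its share of calls, 4.71%, ranked 7. Of the 100 tested genes nearest Gata4, 50 on each side, 3 were called (3.00%, against 4.39% of all genes): Zdhhc20, a palmitoyltransferase gene, rose by 0.90, and Rcbtb1 and Ephx2 fell without being robust (limma adjusted p = 0.0206 and 0.0448; both lost without control jejunum 2 (0.0947 and 0.166), control jejunum 3 (0.0827 and 0.159) or mutant jejunum 2 (0.0902 and 0.124), and Ephx2 also without control jejunum 1 (0.0596), mutant jejunum 3 (0.115) or control ileum 2 (0.0712)). That window leaves out robust calls that lie farther off on 1 side. Counted in tested genes from Gata4, the falls Dhrs1, Slc7a8, Rpgrip1, Rnase1 and Ang lie at -60, -92, -116, -123 and -126. Rnase4, a rise, lies at -125. Whether calls gather in that stretch was not tested. Only mutants carried the null copy. For genes on that chromosome, loss of Gata4 and the sequence that travels with the null copy therefore cannot be told apart. Robust calls there also include Slc7a8 (-2.88), Prxl2a (-2.87), Dhrs1 (-2.12), Rnase1 (-1.75) and 2610528A11Rik (2.03).

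Ang, in its brightest probe set, and its neighbour Rnase4, chosen after its values were seen, moved in opposite directions. Ang, angiogenin, stood at 8.16, 8.39 and 8.40 in control jejunum, 6.52, 6.71 and 6.03 in mutants and 9.81, 9.56 and 9.68 in ileum (difference -1.90, limma adjusted p = 0.000177). Rnase4, another secreted ribonuclease, read 9.45, 9.53 and 9.30 in control jejunum, 10.49, 10.61 and 10.63 in mutants and 10.64, 10.50 and 10.55 in ileum (1.15, limma adjusted p = 0.000166). In these probe sets neither gene's jejunum groups overlapped, and mutants matched ileum for Rnase4 only. RefSeq lists for both genes a start with the same 250 bases before it (chr14:51090827-51091076, plus strand, GRCm38.p6), shown because 1 window serves both, and it held none of the GATA letters above.
Ang and Rnase4: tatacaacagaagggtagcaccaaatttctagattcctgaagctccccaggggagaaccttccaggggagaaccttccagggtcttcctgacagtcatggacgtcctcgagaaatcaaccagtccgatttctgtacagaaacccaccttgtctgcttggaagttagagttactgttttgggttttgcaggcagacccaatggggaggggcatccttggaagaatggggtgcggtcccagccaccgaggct
The probe sets of Ang did not agree: a second one fell less (-0.96, limma adjusted p = 0.026, not robust) and the last was higher without being called (0.55, limma adjusted p = 0.0586). In that last one the mean was 6.26 in control jejunum and 6.81 in both mutants and ileum, the same direction as Rnase4. The types of the first and second can match several transcripts, and ribonucleases of this family are alike in sequence, so the Ang values are uncertain.

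Probe sets of 1 gene seldom opposed each other. Of 6394 genes with over 1 tested probe set, 453 had any called, 143 had more than 1 called in the same direction, and 84 had all called. Klk1 and Pdlim1 were the 2 with calls in opposite directions. Klk1, a kallikrein of a large family, fell in a probe set that can match several genes (-1.16, limma adjusted p = 0.00455) and was higher in another (1.02, limma adjusted p = 0.0462, not robust). Pdlim1, a cytoskeletal adaptor, rose in its brightest probe set (0.69, limma adjusted p = 0.00303) and was lower in a dim one (-1.27, limma adjusted p = 0.0149, lost without control jejunum 3 or mutant jejunum 2 at 0.0574 and 0.0696).

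The median SD over the 3 mutants was 0.24 for the 317 fallen genes and 0.17 for the 290 risen genes, on either side of the 0.20 for all genes, while controls had 0.16 for each. Mutant 1 had the highest level of the 3 mutants, and so had fallen least, in 217 of 317 fallen genes (68.5%), against 31.1% of all genes. Mutant 3 had the lowest in 61.5%, against 39.3% of all genes. Of the 25 largest falls, mutant 1 was highest in 20. The median difference of the fallen genes from the control mean was -0.76 in mutant 1, -1.01 in mutant 2 and -1.10 in mutant 3, whereas that of the risen genes was 0.83, 0.90 and 0.87. Mutant 3 was also the array that stood apart on the second component, and the part of that in these shares was not tested.

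**Figure D4:**
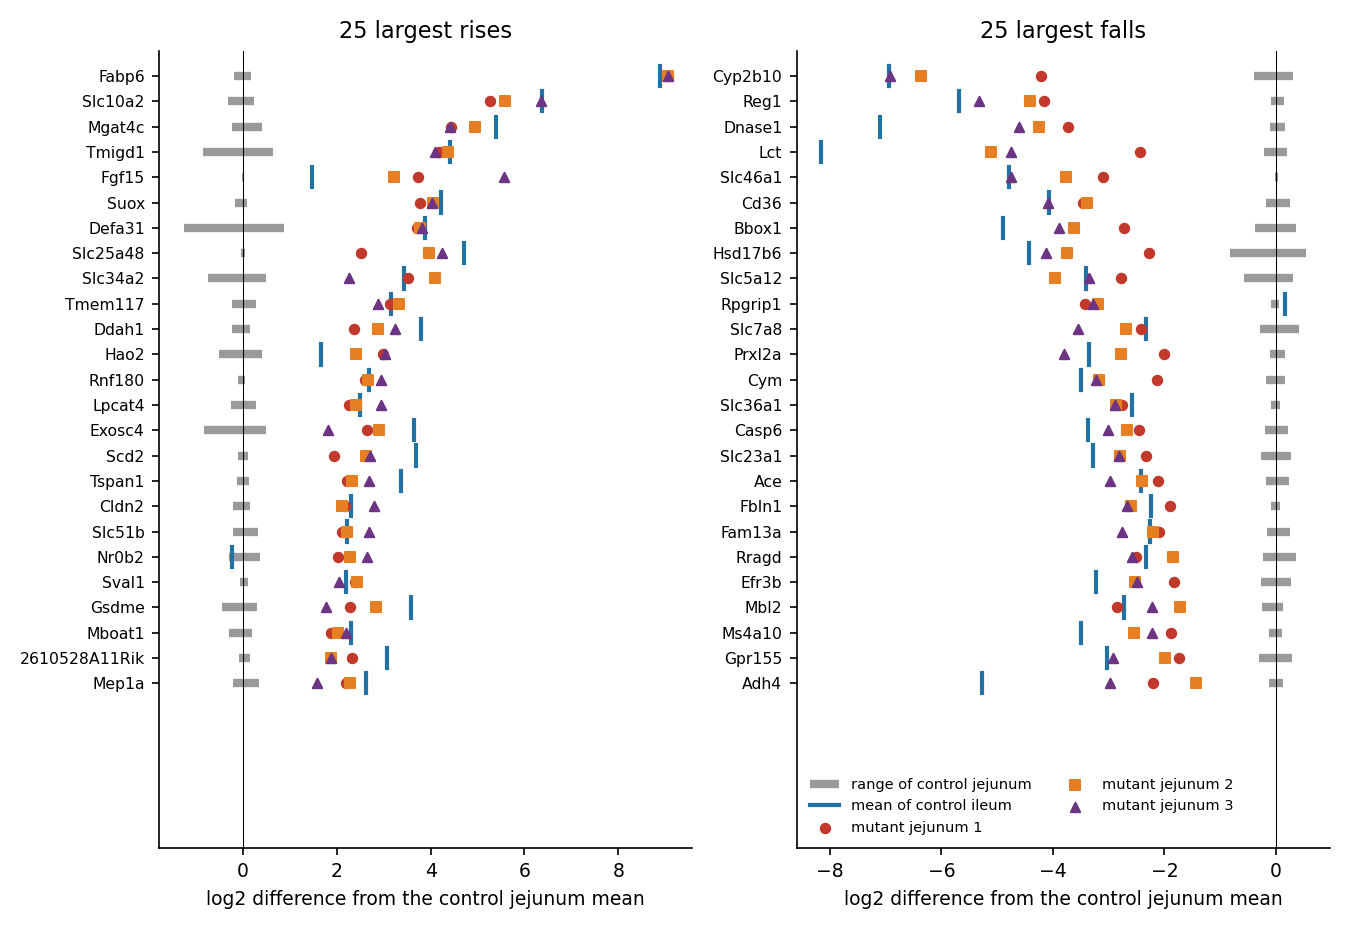
Difference of each mutant jejunum array from the control jejunum mean (horizontal axis, log2) for the 25 largest robust rises and falls; grey bars span the 3 controls and blue ticks mark the ileum mean. Circles of mutant 1 lie nearest to 0 in 20 of the 25 falls, and the mutants are spread widely for Cyp2b10 and Lct.

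The 8 called genes with the largest SD over the mutants were Cyp2c29, Lct, Cyp2b10, S100g, Fgf15, Slc6a20b, 1810065E05Rik and Slc25a45. Cyp2c29, a P450 enzyme, stood at 10.73, 9.85 and 11.06 in controls and 9.38, 6.61 and 5.58 in mutants, so mutant 1 came close to the controls (difference -3.36, limma adjusted p = 0.0324, lost in 11 of 20 alternatives). S100g, the calcium-binding protein calbindin-D9k, stood at 8.51, 7.40 and 6.71 against 11.08, 11.18 and 8.77, with ileum at 6.63, 7.43 and 7.23, and mutant 3 lay just above the highest control (2.80, limma adjusted p = 0.0288, lost in 6 of 20). Slc25a45, a mitochondrial carrier, stood at 11.10, 11.06 and 11.18 against 9.75, 9.27 and 7.75 (-2.19, limma adjusted p = 0.0124, lost without control jejunum 2 or 3 at 0.0516 and 0.0585).

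Several listed genes moved widely between mice of a group and so were not called. Pla2g4c, a phospholipase, stood at 7.51, 4.52 and 4.45 in controls and 11.11, 12.08 and 7.91 in mutants (4.87, limma adjusted p = 0.0612). Gsdmc2, a gasdermin, stood at 7.63, 5.03 and 4.71 against 9.88, 11.15 and 7.22 (3.63, limma adjusted p = 0.0709). In both genes control 1 was the highest control, at about the level of mutant 3, the lowest mutant. Saa1, an acute-phase protein, stood at 4.17, 4.28 and 4.11 against 5.10, 6.82 and 8.09 (2.49, limma adjusted p = 0.0701), with ileum far higher at 11.25, 11.24 and 13.21. Pla2g2a, a secreted phospholipase of Paneth cells, differed by mouse and not by group: it was 12.84 in control 2 and 12.77 in mutant 2, from 7.08 to 8.85 in the other jejunum arrays, and 13.53, 9.57 and 10.16 in ileum (limma adjusted p = 0.906).

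**Figure D5:**
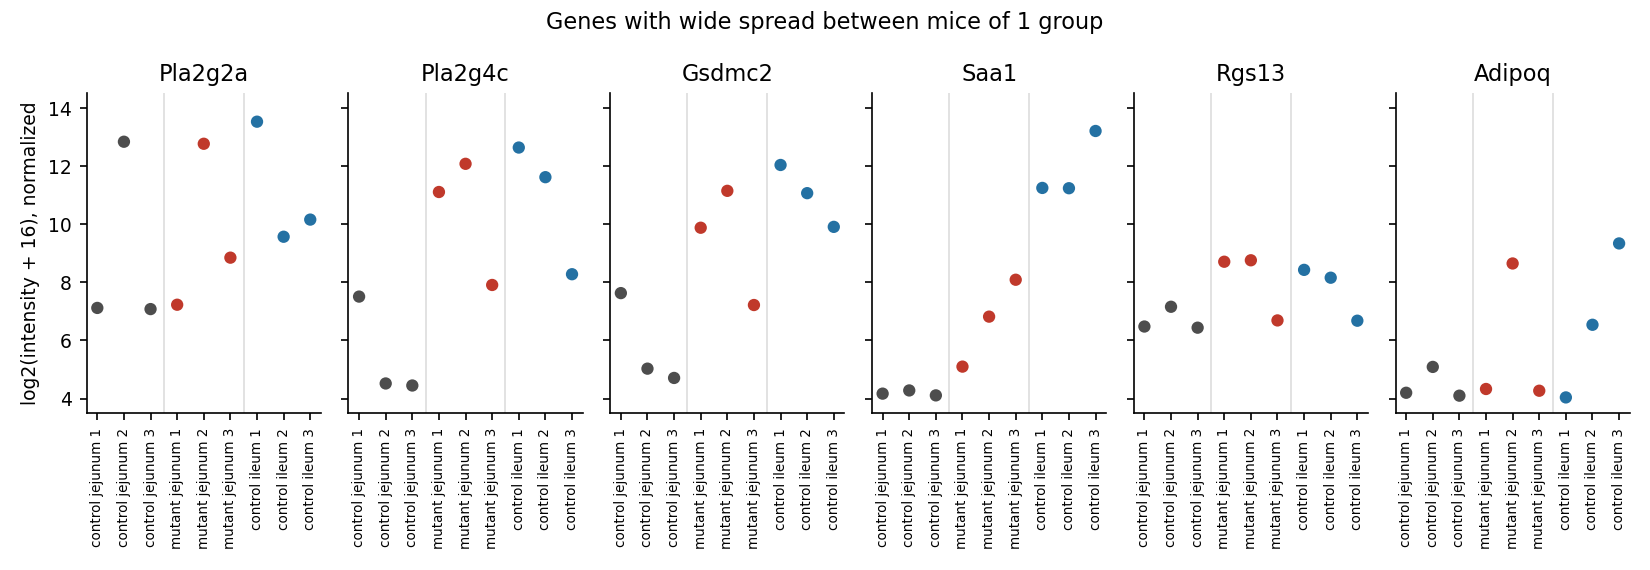
Normalized level (vertical axis, log2) of 6 genes on each of the 9 arrays, grey for control jejunum, red for mutant jejunum and blue for control ileum. Pla2g2a is high in control jejunum 2, mutant jejunum 2 and control ileum 1, and Adipoq in mutant jejunum 2 and control ileum 3.

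Markers of other cells gave these values. No member was called in limma among 13 tuft cell, 15 crypt stem cell, 10 smooth muscle, 10 enteric neuron and glia, 12 stroma and vessel, 13 myeloid, 12 T and NK cell, 9 B and plasma cell or 3 fat and blood genes. At an unadjusted p under 0.05, 3 tuft cell genes were higher and 2 lower, 1 crypt stem cell gene higher and 2 lower, 1 smooth muscle gene lower, 1 neuron or glia gene higher and 2 lower, and 2 T and NK cell genes higher, with 0 in the other lists. By that measure 1221 of all 13830 genes were higher and 1309 lower, and limma called 2.10% of all genes higher and 2.29% lower. Goblet cell genes had 1 rise of 18 (5.56%), not robust, and a median of 0.32. Yet 16 of them were above 0, against 6930 of all 13830 genes, and 7 were higher and 0 lower at an unadjusted p under 0.05. Among 8 Paneth cell genes Defa31 alone was called, a rise (12.5%, list median 0.60), and 3 were higher and 1 lower at that unadjusted p. Rnase1 alone was called among 6 pancreatic acinar genes, a fall (16.7%), with 1 higher and 1 lower at that p. Tuft cell markers had a median of 0.85 and 0.77 over the control mean in mutants 1 and 2 but -0.09 in mutant 3; Rgs13, for example, stood at 6.48, 7.16 and 6.44 in controls and 8.71, 8.76 and 6.69 in mutants. Stroma markers had a median of 0.69 in mutant 3 and -0.07 and -0.09 in the others. The fat genes Adipoq and Fabp4 stood at 8.65 and 10.34 in mutant 2 and at no more than 5.09 and 8.47 in the other jejunum arrays. Cd36, which fat cells also make, was at 6.92, 6.99 and 6.29 in mutants 1, 2 and 3. In control ileum 3, where Adipoq was also high, Cd36 read 7.89, against 5.39 and 5.69 in ileum 1 and 2. The part of these cells in other results was not tested.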

How the data were processed

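Total RNA from 9 mice was hybridized to Affymetrix arrays, 1 per mouse. The authors deposited linear intensity values, 1 for each probe set on each array, made with GCOS per the submitters' processing notes; the version was not given in the sources used here. Groups come from the sample titles. From these values log2(intensity + 16) was computed and quantile normalized over the 9 arrays, so that a shift of all transcripts could not be seen. The 64 array controls were left out. Testing was limited to the 29307 probe sets that lay over a floor of 4.95, the 40th percentile, on 3 or more arrays. Differences were tested with limma 3.58.1 in R 4.3.3 (lmFit over 3 groups, eBayes with trend, two-sided, Benjamini-Hochberg), and the code was tested on simulated data. Mice were separate animals, so p-values measure the spread between mice, and 3 arrays per group limit the precision.

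Gene names come from the array's annotation table: 34945 probe sets have 1 gene, 932 several and 9160 none, and 34741 matched RefSeq (GRCm38.p6). The brightest tested probe set stands for a gene. Named genes are Gata4, the 25 largest rises and falls that do not overlap between groups and are called in every alternative (pseudocount, filter, scaling, fit, weights and each array left out), list members, genes with opposed probe sets, called neighbours of Gata4 and the 8 called genes with the largest mutant SD. The members and gene lists (29 by function and 14 of cell markers) were chosen with earlier results of these data known. Deviations from the group means of same-numbered mutant and control mice correlated at r = 0.165, -0.0572 and -0.0108 over probe sets. Mice of unlike number were not compared, so these values cannot show whether the mice were paired. The sample titles name no pairs, and the numbers were not used as pairs.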

Additional observations from a re-analysis of the deposited data

How the results depend on the processing

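The 50 largest rises and falls were chosen for being called in every alternative, so their stability is no result. The difference of the brighter Gata4 probe set was not called in any alternative and lay from -0.08 to 0.08. That of the dimmer one (0.65) was called, as higher in mutants, in 1 of 20 alternatives. The counts moved. Without scaling between arrays 329 probe sets were higher and 330 lower (659 in all), with array weights 1035 and 963 (1998 in all), and with arrays centred on their medians 523 and 320. Leaving out 1 array gave from 207 to 499 higher, from 193 to 508 lower and from 400 to 1007 in all. With the replicate number as a block (replicate block), 462 were higher and 479 lower, 941 in all, though the sample titles do not say that the numbers pair the mice. List medians near 0 turned sign under other scalings: brush border peptidases from -0.02 to 0.07 without scaling, 0.12 centred and 0.03 with trimmed means, and ion and water transport from -0.05, Wnt, Notch, BMP and hedgehog signalling from -0.06 and crypt stem cells from -0.04 to 0.03, 0.01 and 0.03 when centred. Differences of genes near background in 1 group depend on the pseudocount, since the fit reads signal over background and not counts.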
